A study of Mus musculus with 13 samples.

Results

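The fibroblasts described here were a rare set of mouse mammary stromal cells with RNA of Pappa2 and of at least 1 of Lgr5, Prlr, Stc1 and Egfl6. They were chosen in 5 stage libraries from barcodes with 500 to 7500 genes, at most 10% mitochondrial UMIs, at least 50 UMIs of Dcn, Lum and Col1a2 in each 10000, and no UMI of Epcam, Pecam1, Rgs5, Sox10, Ptprc or Myog. A member then had at least 1 UMI of Pappa2 and at least 1 UMI of Lgr5, Prlr, Stc1 or Egfl6. The rule took 176 of 48890 fibroblasts (0.360%, 95% exact binomial interval 0.309% to 0.417%), in a series of 120355 barcodes. Since measured values chose these cells, their difference from other fibroblasts of the stage libraries is a description. The tests were run in the hormone libraries, which the rule does not name. Members there were picked from measured values by the same limits, and the genes of the rule were not tested.

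The study profiled sorted mammary stromal cells by droplet single-cell RNA sequencing (10x Chromium, 3′ chemistry), which counts unique molecular identifiers (UMIs) per gene and cell. The stage libraries came from wildtype C57BL/6 females at puberty (4 weeks in the labels), as adult virgins at 9 weeks, at day 14.5 of pregnancy, at day 10 of lactation and at day 4 of involution. Each stage was 1 library of 2 pooled females, sorted as negative for CD24 and for the lineage markers TER-119, CD31 and CD45, so stages were not tested against each other. The hormone libraries came from wildtype C57BL/6 females of 9 weeks that carried pellets of placebo or of medroxyprogesterone acetate with estradiol (MPA+E) for 7 days, with 2 libraries per group and the same sort. The raGFP-Wnt1 libraries, used only for description, came from GFP+ cells of hyperplastic glands and tumours of Pdgfra-GFP KI/+ MMTV-Wnt1 T/+ females on a mixed C57BL/6 and FVB background, of 45 weeks (mouse 1) and 17 weeks (mouse 2). The GFP there marks cells with an active Pdgfra gene, and the mouse mammary tumour virus promoter drives Wnt1 mainly in the epithelium. Per library, 5230 to 14424 barcodes with 56551189 to 112550204 UMIs were present, and any pair of the 13 libraries shared 5 to 51 barcode sequences.

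Pappa2 is a secreted metalloprotease that cuts the binding proteins Igfbp3 and Igfbp5 and thereby frees insulin-like growth factor, and stanniocalcin (Stc1) binds and blocks proteases of its family. Prlr is the receptor of prolactin, the hormone of milk production, and signals through the kinase Jak2 and the transcription factor Stat5. Lgr5 is a receptor of R-spondins, which strengthen Wnt signals, and Egfl6 is a secreted protein with epidermal growth factor repeats. Mammary fibroblasts lie around the ducts and in the fat pad, where they make collagen and signals for the epithelium.

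The share of fibroblasts that passed the rule was below 1% at every stage. It was 31 of 7121 (0.435%, 0.296% to 0.617%) at puberty, 49 of 11951 (0.410%, 0.303% to 0.542%) in the adult and 45 of 11501 (0.391%, 0.286% to 0.523%) in pregnancy. Lactation followed with 27 of 8454 (0.319%, 0.211% to 0.464%), and involution had 24 of 9863 (0.243%, 0.156% to 0.362%). The intervals cover counting error only, and those of neighbouring stages overlapped. The highest share was 1.79-fold the lowest, a pair picked as the extremes of 5 libraries. The order depended on depth: after thinning each cell to 2000 UMIs, 105 members remained, and pregnancy had the highest share (32 members, 0.314%) and puberty the lowest (9 members, 0.135%). Members were deeper than the remaining fibroblasts, with a median of 8191 against 6657.5 UMIs at puberty, 8862 against 5790.5 in the adult and 5668 against 3987 in pregnancy. Among barcodes under the limit on Dcn, Lum and Col1a2, a Pappa2 UMI was found in 2 of 905 at puberty, 2 of 485 in the adult, 1 of 1390 in pregnancy and 0 of 238 and 0 of 598 at the last stages, at shallower depth (a median of 3494 UMIs at puberty and 3000 in the adult, against 6663 and 5805 in fibroblasts).

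**Figure D1:**
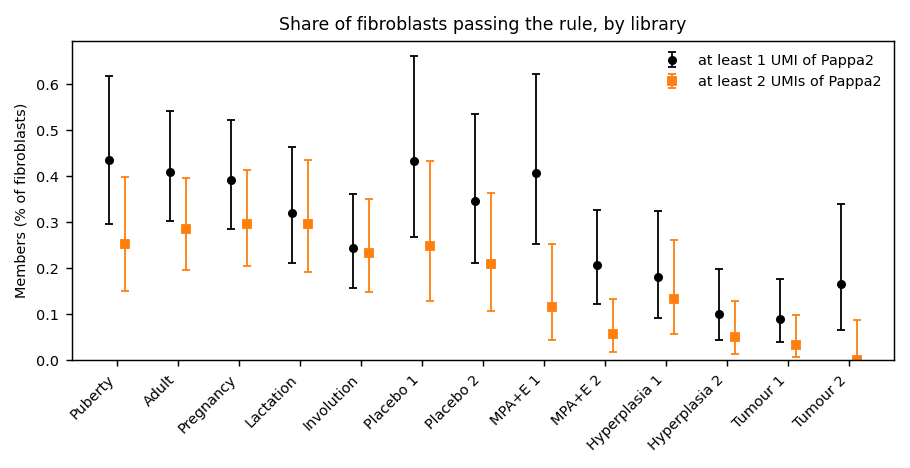
Share of fibroblasts that passed the rule in each of the 13 libraries (percent), with at least 1 Pappa2 UMI (circles) and with at least 2 (squares), with 95% exact binomial intervals (lines). With at least 1 UMI the stage libraries lie between 0.243% in involution and 0.435% at puberty with overlapping neighbours, and the raGFP-Wnt1 libraries lie at 0.0897% to 0.182%.

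Pappa2 itself was the marker that varied most over the stage libraries among members, though it also chose these cells. Levels are UMIs summed over the members of a library and scaled by all UMIs of the same cells (CPM). Pappa2 stood at 301 CPM at puberty (95% Poisson interval 240.1 to 373, counting error only), 579 in adults, 953 in pregnancy, 2223 in lactation (2039 to 2420) and 1892 in involution, and at 0.270 to 1.10 CPM in the remaining fibroblasts. A member held a median of 2 Pappa2 UMIs at puberty (range 1 to 10), 4 in the adult (1 to 23), 3 in pregnancy (1 to 17), 12 during lactation (1 to 81) and 9 at involution (1 to 108). The 2 late stages were above the earlier 3 in level and in UMIs per cell, with 1 library each. The rule itself required a Pappa2 UMI, and members with only 1 were unevenly spread. They were 13 of 31 at puberty, 15 of 49 in the adult and 11 of 45 in pregnancy. Lactation had 2 of 27 and involution 1 of 24. The part of such cells in the stage levels was not tested. Prlr, by contrast, stayed between 429.9 CPM at puberty and 833 in pregnancy, with 654 in adults, 558 in lactation and 631 in involution. Lgr5 stood at 269, 212 and 236 CPM in the first 3 stages, 654 in lactation and 153 in involution. Stc1 ranged from 127 CPM in the adult to 258 in lactation and Egfl6 from 28.7 CPM at puberty to 133 in lactation, so lactation had the highest level of each of these but Prlr.

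Most members had Prlr, and few had all of the further markers. Prlr UMIs came from 158 of 176 members (89.8%), Lgr5 UMIs from 97 (55.1%), Stc1 UMIs from 75 (42.6%) and Egfl6 UMIs from 44 (25%). A single further marker was found in 58 members, 2 in 59, 3 in 38 and all 4 in 21. At least 2 Pappa2 UMIs were found in 134 members (76.1%): 18 from puberty, 34 each from the adult and pregnancy libraries, 25 from lactation and 23 from involution. The genes lie on different chromosomes (GRCm38): Pappa2 at chr1:158711727-158980490, Lgr5 at chr10:115450311-115587780, Prlr at chr15:10177238-10349180, Stc1 at chr14:69029238-69041804 and Egfl6 at chrX:166523007-166585720.

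Cells at the edge of the rule had lower levels of Igf1 and Emb, which the rule did not use, than its core. Just outside it lay 142 fibroblasts with Pappa2 and no further marker, and 138 with at least 2 further markers and no Pappa2. Igf1, the growth factor itself, stood at 4164 CPM in members with at least 2 Pappa2 UMIs, 1919 in members with 1, 1288 in the cells with markers but no Pappa2, 697 in the cells with Pappa2 alone and 323 in the remaining fibroblasts. Emb, which encodes the cell surface glycoprotein embigin, followed the same order with 478, 303, 175, 108 and 25.8 CPM. These values chose or border on the choice of the cells and carry no test.

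Members lay near each other by genes outside the rule. In each library the fibroblasts were placed in 30 principal components of 2000 variable genes, without the genes of the rule and mitochondrial genes, and the 20 nearest fibroblasts of every member were counted. The median share of members among these 20 was 65% (quartiles 5% and 85%), and 148 of 176 members had at least 1 other member among them. By library the median was 5% at puberty, 75% in adults, 90% in pregnancy, 85% during lactation and 65% during involution. Puberty had the lowest median, but 22 of its 31 members had another member among their 20 nearest, against 199 of its 7090 remaining fibroblasts and 3 of the 310 matched to members in UMIs. Over all libraries the median was 72.5% for members with at least 2 Pappa2 UMIs and 5% for the 42 members with 1, which came mostly from the first 3 stages. Within them the medians were 10% and 5% at puberty, 80% and 0% in adults, and 95% and 5% in pregnancy, while lactation and involution had 2 and 1 members with a single UMI. Of the remaining fibroblasts 0.971% had a member among their 20 nearest, and 1.65% of those matched to members in UMIs.

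**Figure D2:**
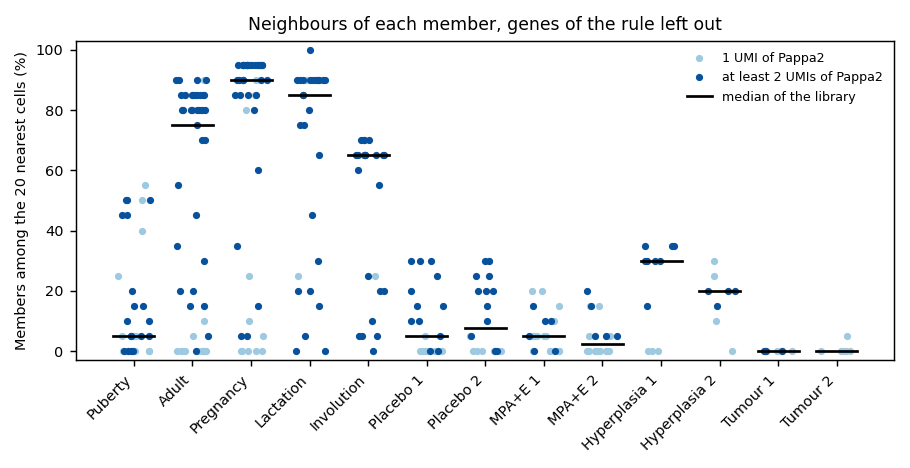
Share of members among the 20 nearest fibroblasts of each member (percent, one point per member, light for 1 Pappa2 UMI and dark for at least 2) by library, with the library's median as a bar. Adult, pregnancy, lactation and involution members lie mostly among other members, with medians of 65% to 90%, and puberty members lie low, with a median of 5%.

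Over the 5 stages, 5605 genes had a mean of at least 20 CPM. Of these, 146 (2.60%) were higher and 195 (3.48%) lower in members by at least 2-fold on average and in the same direction in 5 of 5 libraries, where the average is that of log2 ratios with 5 CPM added to both sides. By any margin, 587 genes (10.5%) were higher and 863 (15.4%) lower in 5 of 5 libraries, the shares against which the counts of listed genes at all 5 stages are to be read. The median log2 ratio of all 5605 genes was -0.06. Among the genes that the rule did not use, the 15 with the highest mean were Ctla2a, Ptn, Emb, Pnoc, Igf1, A2m, Ptgfr, Clu, Rxfp1, Lgi1, Agt, S100a4, Mup20, Kcnj8 and Palmd. The 10 with the lowest were Thbs4, Limch1, Scg3, Pla1a, Hc, Efemp1, Maf, Smpd3, Cxcl13 and Lurap1l.

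Genes of secreted proteins among the 15 highest included Ctla2a, Igf1, Ptn and Clu. Ctla2a, a cysteine protease inhibitor, stood at 297 CPM at puberty, 741 in adults, 5269 in pregnancy, 7044 during lactation and 1975 during involution, against 7.24 to 76.3 CPM in the remaining fibroblasts (mean log2 ratio 5.86 ± 1.26, SD, n = 5 libraries). It rested on a share of the members, with UMIs from 89 of 176, and its own level is uncertain since Ctla2b is nearly identical in sequence. Igf1 stood at 2848, 2512, 4878, 5375 and 3700.0 CPM in the same order, against 216 to 414 CPM (3.54 ± 0.56), with UMIs from all 176 members and at most 2.49% of them from 1 cell. Pleiotrophin (Ptn), a heparin-binding growth factor, stood at 906, 1559, 922, 458 and 533 CPM against 12.95 to 105.6 CPM (4.13 ± 0.83). Clu, an extracellular chaperone, stood at 105 to 308 CPM against 8.82 to 16.3 CPM (3.28 ± 0.62). For these genes the lowest member library lay above the highest library of the remaining fibroblasts.

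Membrane proteins of the higher group included Emb at 283, 591, 539, 275 and 348 CPM against 12.1 to 38.0 CPM (3.73 ± 0.42), with UMIs from 136 members. Ptgfr, the receptor of prostaglandin F2α, stood at 57.3, 68.7, 96.9, 254 and 129.8 CPM against 3.96 to 10.0 CPM (3.28 ± 0.72). Rxfp1, the relaxin receptor, stood at 17.9, 37.5, 73.6, 33.3 and 92.7 CPM against 0.0956 to 1.11 CPM, with UMIs from 39 members. The subunits of an ATP-sensitive potassium channel, Kcnj8 (60.3 to 209 CPM against 3.39 to 17.1) and Abcc9 (93.2 to 279 against 16.5 to 31.2), were both higher at every stage. Pnoc, the precursor of nociceptin, stood at 16.7 to 225 CPM in members against at most 0.289 CPM in the remaining fibroblasts, but its 120 UMIs came from 24 cells. Mup20 rested on fewer still, since 71.3% of its 188 UMIs came from 1 cell and 14 members had any.

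Among the 10 lowest genes, Thbs4 and Efemp1 encode matrix proteins. Thbs4, a thrombospondin, stood at 222 CPM at puberty, 22.9 in adults, 0 in pregnancy, 4.16 during lactation and 92.7 during involution, against 105 to 286 CPM in the remaining fibroblasts (-2.65 ± 2.12), and puberty members did not stand apart from the remaining cells (222 against 226). Efemp1, a fibulin, was steadier with 129, 114, 101, 192 and 139 CPM against 452 to 983 CPM (-2.18 ± 0.26). Limch1, an intracellular protein associated with actin, stood at 0 to 8.33 CPM against 35.2 to 66.2 CPM (-2.55 ± 0.36).

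**Figure D3:**
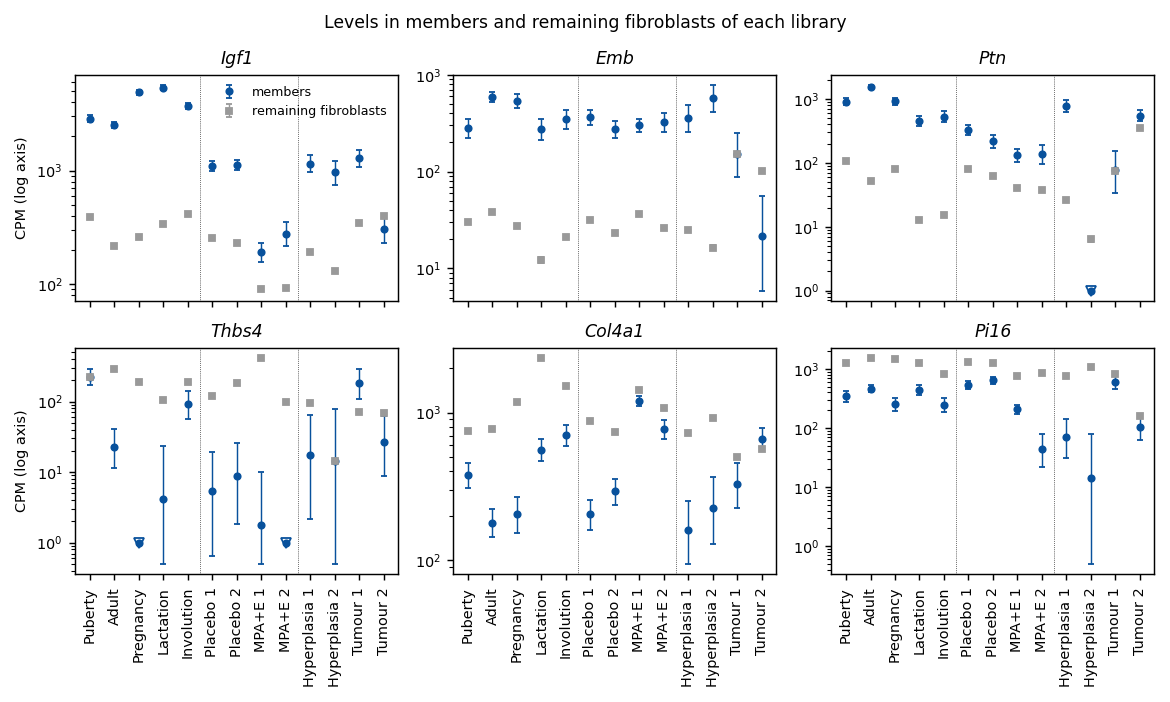
Level of Igf1, Emb, Ptn, Thbs4, Col4a1 and Pi16 in members (circles) and in remaining fibroblasts (squares) of the 13 libraries (CPM, log axis), with 95% Poisson intervals of the summed counts. Open triangles at 1 CPM stand for members without a UMI, and dotted lines separate the stage, hormone and raGFP-Wnt1 libraries. Igf1 and Emb are higher in members at all 5 stages, and Pi16 and Col4a1 are lower at all 5. Thbs4 is lower by a wide margin in the adult, pregnancy and lactation. It is lower by less at involution (92.7 against 188 CPM) and nearly equal at puberty (222 against 226 CPM).

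Since Prlr was a gene of the rule and Stat5 binds TTCNNNGAA, which reads the same on both strands, the 250 bases before the start of each gene were searched for these letters in the RefSeq promoters of GRCm38.p6. Of the 15 genes that were highest in members 9 had a promoter in the table, and 3 of these 9 held the motif, against 0 of 7 of the 10 lowest genes and 2197 of all 27025 genes (8.13%). By promoter these were 4 of 10 (40%), where both promoters of Ctla2a overlap and hold the same match, 0 of 9, and 7.02% of all 32851 promoters. Of the genes of the rule 3 had promoters in the table, and 1 of their 5 promoters, one of Prlr, held the motif. The genes were Ctla2a, Lgi1 and Agt, which encode the protease inhibitor named above, a secreted neuronal glycoprotein and angiotensinogen. Their sequences are shown with that of Pappa2, which defined the cells and had no match, from 5′ to 3′ on the strand of the gene, with the motif in capitals. The Pappa2 start in the table lies within the gene span given above, so it is not the only start annotated. The Lgi1 start in the table also lies within the span in the gene annotation (chr19:38264536-38312214), and the match there is inside that span. A match in these letters is a description and does not show binding.
Pappa2, chr1:158958176-158958425, minus strand: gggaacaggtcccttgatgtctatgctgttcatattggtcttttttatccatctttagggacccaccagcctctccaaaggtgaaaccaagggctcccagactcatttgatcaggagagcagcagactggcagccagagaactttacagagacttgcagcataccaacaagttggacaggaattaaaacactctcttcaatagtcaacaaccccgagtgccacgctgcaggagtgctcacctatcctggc
Ctla2a, chr13:60936626-60936875, minus strand: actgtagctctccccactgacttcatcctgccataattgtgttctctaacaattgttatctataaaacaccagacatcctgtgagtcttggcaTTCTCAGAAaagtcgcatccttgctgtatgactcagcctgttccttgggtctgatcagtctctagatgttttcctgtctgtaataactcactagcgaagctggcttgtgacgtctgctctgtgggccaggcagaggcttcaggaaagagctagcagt
Lgi1, chr19:38264437-38264686, plus strand: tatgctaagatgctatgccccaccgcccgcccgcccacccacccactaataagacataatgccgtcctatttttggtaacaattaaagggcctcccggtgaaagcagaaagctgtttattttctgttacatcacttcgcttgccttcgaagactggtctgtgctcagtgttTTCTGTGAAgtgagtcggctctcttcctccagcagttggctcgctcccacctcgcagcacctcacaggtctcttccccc
Agt, chr8:124569707-124569956, minus strand: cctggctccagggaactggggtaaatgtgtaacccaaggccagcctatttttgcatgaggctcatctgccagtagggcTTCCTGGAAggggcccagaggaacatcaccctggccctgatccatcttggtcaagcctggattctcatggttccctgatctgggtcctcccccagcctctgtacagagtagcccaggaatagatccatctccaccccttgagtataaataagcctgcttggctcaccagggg

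The hormone libraries held 80 cells of the rule among 24452 fibroblasts (0.327%). The placebo libraries had 21 of 4843 (0.434%) and 20 of 5760 (0.347%), and the MPA+E libraries 21 of 5152 (0.408%) and 18 of 8697 (0.207%). The mean share under MPA+E minus that under placebo was -0.0831 percentage points (exact permutation test over 2 against 2 libraries, two-sided p = 0.667, in a design that cannot reach 0.05 since its smallest p is 1 in 3). At least 2 Pappa2 UMIs were found in 12 members of either placebo library and in 6 and 5 of the MPA+E libraries, so 28 of the 39 MPA+E members had a single one. Pappa2 stood at 369 and 273 CPM in placebo members and at 101 and 163 CPM in MPA+E members. Among the 20 nearest fibroblasts of hormone members the median share of members was 5%, with 2.5% to 7.5% by library, below every stage library but puberty (5%), and it was 15% for the 35 with at least 2 Pappa2 UMIs.

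Members of the hormone libraries were compared with the remaining fibroblasts of the same library by edgeR's quasi-likelihood test on summed counts, with the library as a block and Benjamini-Hochberg adjustment over all 13655 genes tested. The SE given with a fold change was calculated back from the F statistic of this test, with variance shared over genes. It does not measure the spread between libraries. At an adjusted p under 0.05, 463 genes (3.39%) were higher and 528 (3.87%) lower in members, and 316 and 485 of them had that direction in 4 of 4 libraries. The balance turned by DESeq2, with 392 higher and 211 lower, and against remaining cells nearest in UMIs, with 315 and 270. The median log2 fold change over all genes was -0.08. In 19 higher and 40 lower genes at least 50% of the member UMIs came from 1 cell, and 16 lower genes had no UMI in any member. The genes picked on the stage libraries mostly passed here as well. Of the 146 higher genes 144 were tested, and 110 (76.4%) were called higher and 0 lower. All 195 lower genes were tested, and 134 (68.7%) were called lower and 3 higher. These 3, named after their values were seen, were the chemokine Ccl7 (0.56), Samhd1 (0.53) and Ly6c1 (0.37). Of the 25 leading genes 23 were tested, since Pnoc and A2m had too few counts, and all 23 were called in the stage direction.

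Igfbp3, a substrate of Pappa2, was among the most separated genes. It stood at 1032, 792, 210.1 and 250.1 CPM in members of placebo 1, placebo 2, MPA+E 1 and MPA+E 2, against 130.4, 178, 28.9 and 33.6 CPM in the remaining fibroblasts (log2 fold change 2.71 ± 0.14, SE, edgeR adjusted p = 2.24e-35). Emb stood at 364, 273, 301 and 322 CPM against 31.7, 23.1, 36.6 and 26.3 CPM (3.42 ± 0.14, adjusted p = 9.65e-45). S100a4, a calcium-binding protein common in fibroblasts, stood at 439, 228, 600.1 and 1044 CPM against 56.3 to 86.8 CPM (2.91 ± 0.16). For all of these the lowest member library lay above the highest remaining one. Igf1 stood at 1102, 1115, 192 and 278 CPM against 255, 230.3, 89.96 and 93.1 CPM (1.80 ± 0.14, adjusted p = 5.77e-22), so members exceeded the remaining cells within each library, while MPA+E members overlapped placebo remaining cells. Ptn stood at 332, 219.5, 134 and 139 CPM against 80.6, 61.9, 40.5 and 38.1 CPM (1.87 ± 0.15), and Ptgfr at 53.9, 68.2, 32.1 and 43.7 CPM against 3.72 to 5.54 CPM (3.38 ± 0.32). Kcnj8 (3.04 ± 0.28), Abcc9 (2.57 ± 0.19), Clu (3.01 ± 0.20) and Palmd (5.64 ± 0.59) rose in members as well.

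Thbs4 fell in members by 5.84 on the log2 scale (SE 0.32, edgeR adjusted p = 3.99e-34), with 5.39, 8.90, 1.78 and 0 CPM against 120.4, 183, 408 and 97.0 CPM; without placebo 2 the value was -6.59 and without MPA+E 1 it was -4.73. Limch1 (-3.24 ± 0.42), Pla1a (-2.02 ± 0.16), Efemp1 (-1.14 ± 0.13), Maf (-1.22 ± 0.15) and Smpd3 (-1.13 ± 0.20) were lower in each fit that left out 1 library. Other leading genes lost their call or moved more when 1 library was left out. Ctla2a, at 18.9, 211, 1003 and 2278 CPM against 7.99, 10.4, 1678 and 1372 CPM, had a log2 fold change of 1.11 ± 0.24 (adjusted p = 3.18e-04), which was 0.11 without placebo 2 and 1.07 without placebo 1, neither of them called, and 2.07 without MPA+E 1. The SE of Ctla2a does not show how far its libraries differed, as members were below the remaining cells in MPA+E 1 and above them in the others. An edgeR test of the difference between the treatments, added after the data were seen, called 136 of 13655 genes (0.996%) and 4 of the 23 leading ones. It called 66 genes without placebo 1 and 75 without placebo 2, where the lone library left in a treatment is assumed to vary like the others. Ctla2a was among them, at 3.38 on the log2 scale under placebo and -0.036 under MPA+E, but its difference was not called without placebo 2 (-1.24, edgeR adjusted p = 0.811). Cxcl13 (-0.77 ± 0.22) was at -0.15 and not called without placebo 2, Lgi1 (2.26 ± 0.68) was not called without placebo 1 (2.42), placebo 2 (1.70) or MPA+E 2 (2.16), and Rxfp1 (3.63 ± 0.78) was not called without MPA+E 2 (3.15) and stood at 4.44 without placebo 2. Agt (3.90 ± 0.42) stood at 3.21 without placebo 2. Scg3 (-1.48 ± 0.22) stood at -2.12 without placebo 1, and Hc (-3.14 ± 0.34) at -4.69 without placebo 1 and -2.45 without MPA+E 1. Lurap1l (-1.09 ± 0.33) was not called without placebo 1 (-1.17), placebo 2 (-0.89) or MPA+E 2 (-0.90). Mup20 (4.73 ± 0.61) had 54.9% of its UMIs in 1 cell and stood at 3.70 without placebo 2 and 5.38 without MPA+E 2, and at 2.40 and not called without likely doublets (edgeR adjusted p = 0.0534).

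**Figure D4:**
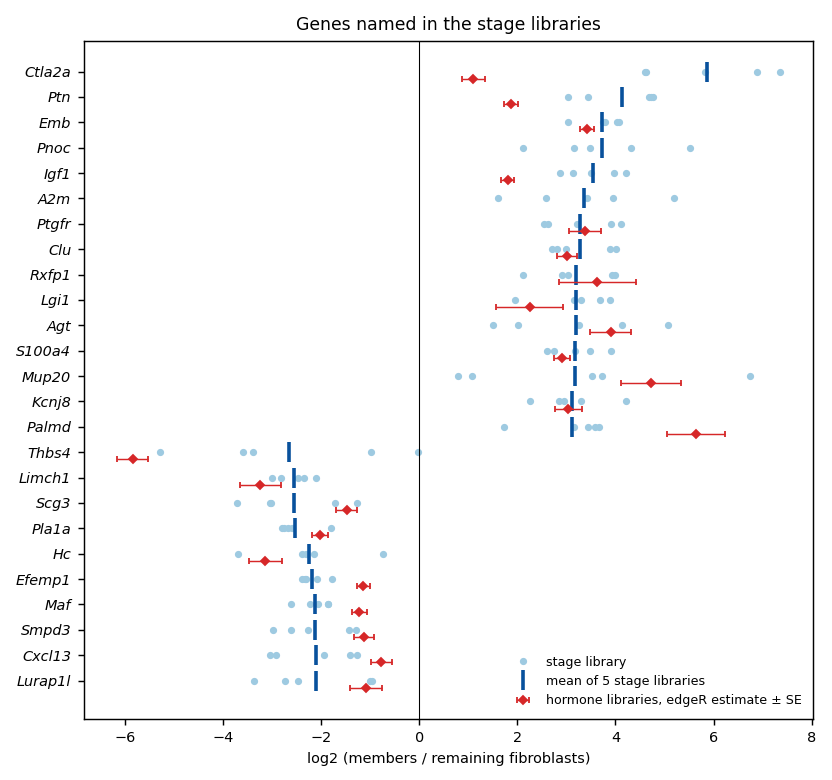
Log2 ratio of members to remaining fibroblasts for the 25 leading genes, in each of the 5 stage libraries (light points), as their mean (dark ticks) and as the edgeR log2 fold change in the hormone libraries with its SE (diamonds). All 23 tested genes lie on the same side of 0 in both sets, with Ctla2a at 5.86 and 1.11.

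The insulin-like growth factor axis did not move as a block. Of 13 genes tested 3 rose (Igf1, Igfbp3 and Igfbp7, the last by 0.60) and 4 fell, with a median of 0.17. Igfbp4 (-0.81 ± 0.13) and Igfbp5 (-0.88 ± 0.13), binding proteins of which the latter is a Pappa2 substrate, fell, as did the protease Htra1 (-0.72) and Igfbp2 (-1.46, not called at -0.97 without placebo 2), whose 14 member UMIs all came from placebo 1. In the stage libraries Igfbp3 stood at 638, 181, 217, 587 and 524 CPM in members against 50.6 to 183 CPM, and Igfbp5 crossed over, with 2 stages higher and 3 lower. The related protease Pappa (0.69, adjusted p = 0.635) and the stanniocalcin Stc2 (1.37, adjusted p = 0.0723) did not pass the edgeR test in the hormone libraries.

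Of the prolactin and cytokine receptor genes, 5 of 14 rose and 0 fell in the hormone libraries (median 0.24). The growth hormone receptor Ghr stood at 151, 128, 134 and 115 CPM in members against 39.3 to 51.2 CPM (1.5 ± 0.16, edgeR adjusted p = 4.18e-14). Lepr, the leptin receptor, stood at 29.7, 17.8, 21.4 and 71.4 CPM against 0.594 to 1.60 CPM (4.66 ± 0.51), and at 3.89 without MPA+E 2. The shared receptor chain Il6st (0.58) and the inhibitors Socs1 (0.58) and Socs3 (0.38) rose less, and Socs3 was not called without placebo 1 (0.38), placebo 2 (0.41) or MPA+E 2 (0.19). Jak2 (-0.12), Stat5a (0.46) and Stat5b (-0.35) did not pass. In the stage libraries 4 of the 12 genes that passed the level limit were higher and 2 lower at all 5 stages (median log2 ratio 0.02). The Stat5 targets Socs2 and Cish were among the higher ones, and the receptor Osmr and the kinase Jak1 were the lower ones. Socs2 stood at 143, 181, 577, 396 and 389 CPM against 73.1 to 159.9 CPM, but neither Socs2 nor Cish passed in the hormone libraries (Socs2 0.40, adjusted p = 0.172; Cish -0.35, adjusted p = 0.472).

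Most genes of the steroid response list were higher in members in both sets, in counts that include Ctla2a, the highest of the stage genes. The nearly identical Ctla2b is on this list too. Of 9 genes tested in the hormone libraries 7 rose and 0 fell (median 0.77), and of 8 genes that passed the level limit in the stage libraries 6 were higher and 1 lower at all 5 stages. The estrogen receptor Esr1 stood at 115, 125, 209, 379 and 283 CPM in stage members against 55.6 to 85.4 CPM, and rose by 1.08 ± 0.19 in the hormone libraries (edgeR adjusted p = 3.45e-06). Greb1, an estrogen-induced gene, stood at 53.9, 56.4, 219 and 187 CPM in hormone members against 5.77, 6.59, 104 and 90.4 CPM (1.69 ± 0.20), and the chemokine Cxcl12 at 690.0, 1018, 167 and 179 CPM against 258, 209.6, 184 and 134 CPM (1.08 ± 0.16). Cxcl12 was thus higher in members under placebo, and under MPA+E it was lower in 1 library and higher in the other. The edgeR test of the difference between treatments was called for it (1.85 under placebo and 0.07 under MPA+E, adjusted p = 7.12e-11) and for Greb1 (3.15 and 1.04, adjusted p = 9.34e-07). The transglutaminase Tgm2 (0.77) was higher by 1.95 under placebo and stood at -0.036 under MPA+E (adjusted p of the difference 3.99e-09), so its value over 4 libraries fell to 0.41 without placebo 1 and 0.51 without placebo 2, neither of them called. The progesterone receptor Pgr (0.76) was not called without MPA+E 1 (0.18), and Ctla2a, also on this list, is given above. The glucocorticoid receptor Nr3c1 (-0.10, adjusted p = 0.817) did not pass.

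Among the Wnt and R-spondin genes, 5 of 23 tested rose and 1 fell. Of the 5 that rose, 3 encode secreted Wnt antagonists and 2 encode ligands. Sfrp2 stood at 1210.3, 1299, 833 and 627 CPM in members against 425, 365, 234 and 177 CPM (1.75 ± 0.12, edgeR adjusted p = 8.39e-25), Sfrp1 rose by 1.38 ± 0.15, and Dkk2 stood at 205, 172, 21.4 and 107 CPM against 29.2, 31.8, 9.85 and 12.1 CPM (2.49 ± 0.20). The antagonists Sfrp4 (0.38, adjusted p = 0.139) and Dkk3 (-0.31, adjusted p = 0.713), also on this list, did not pass. Sfrp4 stood at 0.84 under placebo and -0.20 under MPA+E (edgeR adjusted p of the change 0.00881), a change not called without placebo 2 (-0.39) or MPA+E 1 (-0.92). The ligand Wnt5a rose by 0.91 and Wnt2 fell by 1.06, and Wnt5b (1.92) was not called without placebo 1 (1.43) or MPA+E 1 (1.91). Sfrp1, Sfrp2 and Wnt5a were also higher in members at all 5 stages, and Wnt2 was lower. Lgr4, the relative of Lgr5, was higher at all 5 stages (28.7 to 45.8 CPM against 11.3 to 22.7) and did not pass in the hormone libraries (0.39, adjusted p = 0.673). The feedback genes Axin2 (-0.81, adjusted p = 0.42) and Znrf3 (0.10, adjusted p = 0.966) did not pass.

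Of the bone morphogenetic protein and transforming growth factor genes, 7 of 18 rose and 2 fell. Antagonists were among those that rose: Nog rose by 3.58 ± 0.56 on 27 UMIs from 10 members (4.27 without MPA+E 1) and Fst by 0.72. The ligands Bmp2 (-1.41) and Bmp7 (-2.14, at -3.60 without placebo 1) fell and Bmp5 (1.95, at 2.78 without MPA+E 1) rose, and the target genes Id1 (1.11) and Id3 (0.58) rose. Of 17 growth factors 5 rose, among them Fgf7 (1.08 ± 0.17), and 3 fell, namely Fgf10 (-2.19 ± 0.36), Hgf (-1.28) and Mdk (-1.34). Fgf7 and Fgf10, related ligands of epithelial growth factor receptors, thus went in opposite directions in the summed counts, with UMIs from 53 and 10 of the 80 members. Vegfa (0.73) was not called without placebo 1 (0.50).

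Basement membrane genes were lower in members in both sets. In the stage libraries 10 of the 12 that passed the level limit were lower at all 5 stages (median log2 ratio -1.36) and 0 higher, and in the hormone libraries 10 of 17 tested fell and 0 rose (median -0.77). Nidogen 1 (Nid1) stood at 337, 279, 302, 691 and 464 CPM in stage members against 908 to 2061 CPM, and at 507, 487, 953 and 413 CPM in hormone members against 1173 to 1362 CPM (-1.15 ± 0.13, edgeR adjusted p = 3.45e-13). The type IV collagen gene Col4a1 stood at 379.8, 179, 205, 558 and 705 CPM against 751 to 2328 CPM, and fell by 0.98 in the hormone libraries. Its difference was -1.72 under placebo and -0.39 under MPA+E (edgeR adjusted p of the change 1.50e-08). Lamb1 (-1.69), Lama4 (-1.14), Col18a1 (-1.92) and Col15a1 (-0.80) fell too, and Lamc1 (-0.57) was not called without placebo 2 (-0.44). Of 19 fibrillar matrix genes tested 9 fell, such as Postn (-2.31 ± 0.14) and Fn1 (-0.87), and 2 rose, Bgn (0.83) and Ogn (0.61). Fibronectin (Fn1) stood at -0.26 under placebo and -1.57 under MPA+E (edgeR adjusted p of the change 7.02e-11). Bgn, a small proteoglycan, was higher in members at all 5 stages as well.

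The members kept fibroblast genes but were lower in several of them. Of 7 general fibroblast markers 5 were lower at all 5 stages and 6 fell in the hormone libraries, for example Col3a1 at 4766 to 14177 CPM in stage members against 9753 to 24384 CPM. Pdgfra stood at 116 to 255 CPM in stage members against 199.6 to 521 CPM and did not pass in the hormone libraries (0.19, adjusted p = 0.504). Of 7 progenitor-like markers 6 were lower at all 5 stages, and 5 fell and 1 rose (Ly6a, 0.59) in the hormone libraries. Pi16, a marker of adventitial fibroblasts, stood at 344, 458, 252, 441 and 246 CPM in stage members against 815 to 1506 CPM, and at 531, 635, 207 and 43.7 CPM in hormone members against 761 to 1328 CPM (-1.80 ± 0.16, edgeR adjusted p = 3.07e-18), which was -1.17 under placebo and -2.64 under MPA+E, a change not called without MPA+E 2 (-0.70) and at -3.16 without MPA+E 1. Dpp4 (-1.05), Cd55 (-1.68), Sema3c (-1.15) and Anxa3 (-0.95) fell as well, and Cd34 did not pass (0.06, adjusted p = 0.883), with -0.31 under placebo and 0.37 under MPA+E (edgeR adjusted p of the change 0.0170, not called without placebo 1, placebo 2 or MPA+E 2). Of 5 preadipocyte-like markers tested 4 fell, such as the lipoprotein lipase Lpl (-1.59 ± 0.14), and 1 rose, the adhesion molecule Icam1 (1.01). Of 6 matrix remodelling-like markers 4 fell and 1 rose in the hormone libraries (median -1.72), the riser being the lysyl oxidase Lox (0.92, at 0.53 without placebo 1), and 0 moved one way at all 5 stages. In the hormone libraries the lobular-like list had 3 higher and 2 lower of 6, and the adipogenesis-regulatory-like list 2 higher and 0 lower of 5.

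**Figure D5:**
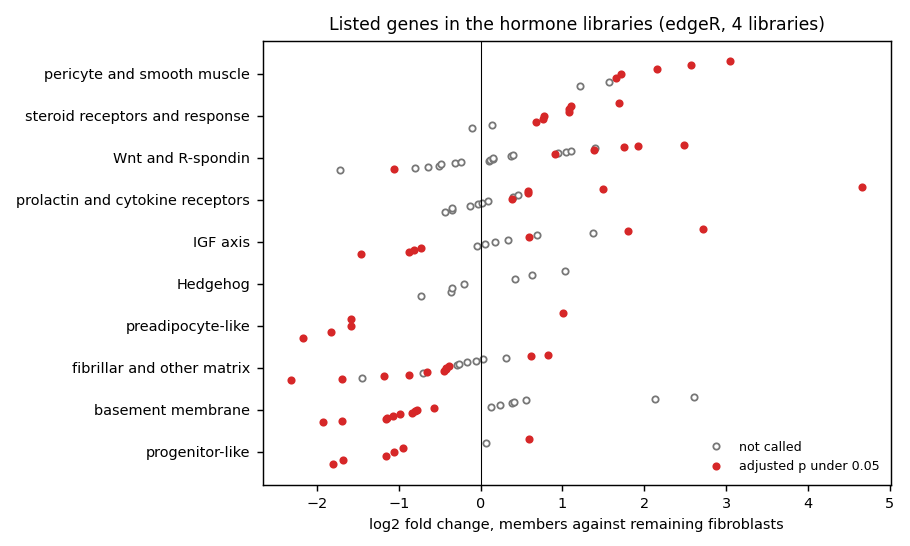
Log2 fold change of the genes of each list in the hormone libraries, members against remaining fibroblasts by edgeR (one point per gene with a member UMI, filled where the adjusted p was under 0.05). The called basement membrane genes all lie below 0 (10 of 17 tested), and the called steroid response genes all lie above it (7 of 9 tested).

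One further list was taken from the study, which gave it for its smallest stage cluster. It holds 23 genes beside those of the rule. Of the 15 that passed the level limit 14 were higher in members at all 5 stages, and of 17 tested in the hormone libraries 13 rose and 0 fell (median 2.77). The study chose this list on the same stage libraries, so the stage count is not independent evidence. Beside the genes above, the list includes Dlk1, an inhibitor of adipogenesis, at 111, 136, 12.5 and 31.8 CPM in hormone members against 1.45 to 7.43 CPM (3.80 ± 0.33, edgeR adjusted p = 8.93e-19, and 4.57 without MPA+E 1). It also holds the carboxypeptidase Cpe (2.17 ± 0.18) and the monooxygenase Moxd1 (6.32 ± 0.74), whose 19 UMIs came from 6 members. The transcription factors Sox9 (1.17) and Hand2 (4.36, 15 UMIs) rose among 24 tested, of which 5 rose and 4 fell. The hedgehog list had 0 of 7 called in the hormone libraries. In the stage libraries 3 of its genes passed the level limit, of which 2 were higher and 1 lower in members at all 5 stages.

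Markers of other cell types were looked for in the members, since a droplet with 2 cells could pass the rule. The rule had already removed barcodes with a UMI of Epcam, Pecam1, Rgs5, Sox10, Ptprc or Myog. Low levels of other markers of those cell types were thus partly fixed in advance, in members and in remaining fibroblasts. Of 5 endothelial markers 4 had no UMI in any stage member (Kdr had 22.9 to 64.9 CPM, and 4.40 to 40.6 in the remaining cells), and 3 of 6 immune markers had none, with a summed level of 7.17 to 33.3 CPM in members and 4.57 to 6.52 in the remaining fibroblasts. The 9 epithelial markers summed to 0 to 229 CPM in members and 0.268 to 464 in the remaining fibroblasts, highest in lactation in both. The 7 pericyte and smooth muscle markers summed to 320.5 to 742 CPM in members against 30.2 to 364, and Kcnj8 and Abcc9 were the genes of this list that were higher at all 5 stages. Mcam and Notch3, also on it, were near the floor in both groups. They had 1 and 6 UMIs in members, at 0 to 3.58 and 0 to 7.75 CPM against 0.360 to 0.537 and 1.74 to 4.02 CPM in the remaining fibroblasts. The part of pericytes in the levels of this list was not tested. In the hormone libraries 5 of the 7 were called higher and 0 lower (median 1.72), and Mcam (1.56, edgeR adjusted p = 0.365) and Notch3 (1.22, adjusted p = 0.272) did not pass. Acta2, Myh11 and Tagln drew 56.5%, 67.6% and 45.4% of their UMIs from 1 stage member each. In the hormone libraries they were called higher (1.65, 2.15 and 1.72), and once likely doublets were removed they stood at -1.16, -0.97 and -1.59 and were not called. Of 5 Schwann cell markers 3 were called higher and 0 lower in the hormone libraries (median 1.94), and their summed level was 49.96 to 78.8 CPM in stage members and 28.5 to 78.6 in the remaining fibroblasts. S100b, a calcium-binding protein of several cell types, stood at 71.7, 58.3, 42.6, 33.3 and 27.8 CPM in stage members against 9.54 to 24.7 CPM, with UMIs from 44 of 176 members, and rose by 1.75 ± 0.23 in the hormone libraries (edgeR adjusted p = 1.56e-09; 1.60 without likely doublets). The part of Schwann cells in these values was not tested. Doublet scores marked 15 of the 176 stage members, and 161 remained when such cells were removed. Of all 48890 stage fibroblasts 44521 remained, a similar share, as a preset number of the highest scores was marked in each library. The part of doublets in the other results was not tested beyond the fits without them.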

How the data were processed

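Filtered 10x matrices of 13 mouse libraries, deposited by the authors, hold unnormalized UMI counts of 32285 genes in each barcode. The submitters' processing notes name Cell Ranger 6.1.2 and mm10. Positions came from GENCODE M21 on GRCm38 (32158 of 32285 identifiers, 99.6%), which was not the annotation of the counting. A UMI of a near-identical gene copy can be assigned to either copy.

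Members were found by the rule given in the report. The members, gene lists and tests were chosen with earlier results of these data known. Counts were summed over members and over remaining fibroblasts of each library, since cells are not replicates, and divided by the total of the sum (CPM). Stage ratios used an offset of 5 CPM and genes with a mean of at least 20 CPM. Named genes were those of the rule, the 15 highest and 10 lowest by mean ratio with 5 of 5 libraries in 1 direction, listed genes, and the 5 largest changes each way in the hormone fit. The hormone fit used edgeR 4.0.16 (quasi-likelihood, TMM, filterByExpr, library as a block, adjusted p under 0.05), as members and remaining cells of a library are paired, and libraries needed 10 members. Separate animals stand behind the libraries of a group per the study's methods. Genes of the rule and mitochondrial genes were not called. Scrublet scores marked doublets (0.8% per 1000 barcodes) for the fit without them, and the main results keep them. The edgeR script was tested on simulated counts. Software was R 4.3.3, limma 3.58.1, DESeq2 1.42.0, Python 3.11.15, numpy 2.4.6, pandas 2.3.3, scipy 1.17.1, scanpy 1.11.5, scikit-learn 1.9.0 and matplotlib 3.10.9. Alternatives were other limits of the rule, DESeq2, no filter, no replicate block, remaining cells matched in UMIs, and each library left out. A fit of the raGFP-Wnt1 libraries was not run, since 1 of the 4 reached 10 members. Single values of 4 listed genes are not reported here, though the genes count in their lists.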

Additional observations from a re-analysis of the deposited data

Results flagged for a closer look

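The member difference was larger or smaller under MPA+E than under placebo for 4 of the 23 leading genes tested. This interaction was added after the data were seen. It was called for 136 of 13655 genes (0.996%) by edgeR at an adjusted p under 0.05, 56 with a larger and 80 with a smaller difference under MPA+E, and 840 genes had an unadjusted p under 0.05. MPA+E members were mostly cells with 1 Pappa2 UMI (28 of 39), against 17 of 41 under placebo, and the part of this in the differences was not tested.

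Ctla2a was higher in members by 3.38 on the log2 scale under placebo and stood at -0.04 under MPA+E, a difference of -3.44 ± 0.25 (SE, edgeR adjusted p = 1.62e-39). Its level in the remaining fibroblasts was 7.99 and 10.4 CPM under placebo and 1678 and 1372 CPM under MPA+E. The SE of this difference comes from the edgeR fit and does not measure the spread between the libraries of a treatment. Without placebo 2 the difference was -1.24 and not called (adjusted p = 0.811).

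Cxcl13 was lower in members by -2.47 under placebo and stood at 0.02 under MPA+E, a difference of 2.52 (edgeR adjusted p = 2.72e-07), at 0.91 and not called without placebo 2 (adjusted p = 1) and at 5.01 without placebo 1. S100a4 was higher by 2.27 under placebo and by 3.46 under MPA+E, a difference of 1.22 (adjusted p = 2.69e-05). It was not called without placebo 2 (1.00, adjusted p = 0.0904), without MPA+E 2 (0.53) or with doublets removed (0.19), and stood at 1.92 without MPA+E 1. Igf1 was higher by 2.19 under placebo and by 1.29 under MPA+E, a difference of -0.87 ± 0.22 (adjusted p = 0.0129). It was called without MPA+E 2 (-1.08) and with doublets removed (-1.10), and not without placebo 1 (-0.90), placebo 2 (-0.79) or MPA+E 1 (-0.64). So without placebo 2 none of the 4 genes was called.

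Among listed genes called in the hormone fit, 26 more had a called difference between treatments (edgeR adjusted p under 0.05), given here as MPA+E minus placebo on the log2 scale. Without 1 library a treatment has a single library left, which is assumed to vary like the others. The difference was called in each of these fits and without likely doublets for 6 genes, namely Cxcl12 (-1.75), Tgm2 (-1.95), Greb1 (-2.08), Fn1 (-1.28), Fndc1 (-1.33) and Col4a1 (1.36). Col4a2 (1.27), Col6a3 (0.87), Igfbp7 (0.67) and Ptgs2 (1.32) had values above 0 as well. Values below 0 were found for Pi16 (-1.42, not called at -0.70 without MPA+E 2 and at -3.16 without MPA+E 1), Mmp3 (-1.23), Lox (-1.26), Postn (-0.96, -0.32 without placebo 1), Cilp (-0.97), Hspa1a (-0.98, -0.35 without placebo 2), Dlk1 (-2.53, -0.18 without MPA+E 1), Dhrs3 (-1.86, -0.72 without MPA+E 1), Sfrp1 (-0.999, -0.44 without placebo 2), Igfbp4 (-0.81, -0.49 without MPA+E 2) and Wnt2 (-2.10). Each of these, from Col4a2 on, lost its call in at least 1 of these fits. Tagln (5.47), Acta2 (4.57), Fabp4 (7.33, 16.05 without placebo 2) and Myh11 (15.39) lost theirs without likely doublets, and Krtdap (12.32) without placebo 1, placebo 2 or MPA+E 2. Cd34 (0.71) and Sfrp4 (-1.01), not called in the hormone fit, had a called difference too, which Cd34 lost without placebo 1, placebo 2, MPA+E 2 or doublets, and Sfrp4 without placebo 2 (-0.39) or MPA+E 1. Other listed genes that the hormone fit did not call are not given here, whether or not they had a called difference between treatments. No placebo member had a UMI of Myh11 or Krtdap, so their fitted values depend on the prior count and are no bound.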

How the results depend on the processing

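The count of 176 members was 165 with a mitochondrial limit of 5%, 174 with at least 1000 genes and 161 without likely doublets, but 134 with at least 2 Pappa2 UMIs, 105 after thinning to 2000 UMIs and 118 with at least 2 further markers, by the construction of these limits. The 341 stage genes were 577 with no limit on the level, 232 (114 higher, 118 lower) with an offset of 20 CPM and 333 to 409 when 1 library was left out. The 991 genes called in the hormone libraries were 603 by DESeq2 (392 higher, 211 lower), 585 (of 8825 tested instead of 13655) against remaining cells nearest in UMIs and 540 with no replicate block, of which 568, 553 and 529 were among the 991; with at least 2 Pappa2 UMIs 327 were called in the 2 placebo libraries, the only ones that then held 10 members, and 637 in the same libraries with all their members. They were 707 to 855 when 1 library was left out, 940 without doublets and 984 with no filter on low counts. Of the 23 leading genes, 19 to 23 were called without 1 library, 20 by DESeq2, 16 of 19 tested against cells nearest in UMIs, and 19 with no replicate block, which lost Ctla2a (1.55), Rxfp1 (3.30), Cxcl13 (-0.93) and Lurap1l (-1.09). Over 144 named or listed genes, 1155 of 1420 values kept direction and call, 257 were no longer called and 8 reversed. These were Acta2 (-1.16 without doublets, -1.62 with at least 2 Pappa2 UMIs), Myh11 (-0.97, -11.88, and -0.32 by DESeq2), Tagln (-1.59, -2.93) and Chrdl1 (-0.43 with at least 2 Pappa2 UMIs). The difference between treatments reversed without doublets for Tagln (-0.98) and Acta2 (-1.11). The 102 UMIs of Myh11 came from 4 members. The mean share under MPA+E was below that under placebo in each setting run. By library, MPA+E 1 lay above placebo 2 under the main rule (0.408% against 0.347%). It also did so with a mitochondrial limit of 5%, with at least 1000 genes and without doublets. Both MPA+E libraries lay below both placebo libraries after thinning to 2000 UMIs, with at least 2 Pappa2 UMIs and with at least 2 further markers. With 24 to 49 members per stage, levels of genes with few UMIs are limited by depth, and 1 library per stage leaves stage and library apart in no test.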

Other observations

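In the raGFP-Wnt1 libraries the rule found 34 of 27181 fibroblasts (0.125%): 11 of 6044 (0.182%) and 8 of 7984 (0.100%) in hyperplasia 1 and 2, and 8 of 8917 (0.0897%) and 7 of 4236 (0.165%) in tumour 1 and 2. With so few cells these values have no test. Pooled over both hyperplastic glands, 13 of the 15 leading higher genes were higher in members (12 by at least 2-fold, median log2 ratio 3.32) and 10 of the 10 leading lower genes were lower (-2.61). In the tumours 10 of 15 were higher (4 by at least 2-fold, median 0.72) and 7 of 10 lower (-1.06). The share of all genes past the same limits in these sums was not computed, so these counts have no background to be read against. A single Pappa2 UMI was held by 5 of 8 and 7 of 7 members of the tumours and by 3 of 11 and 4 of 8 of the hyperplastic glands, and 0 and 1 tumour members had another member among their 20 nearest fibroblasts, against 8 and 7 in the glands. Emb stood at 441 CPM in hyperplasia members against 20.2 CPM in the remaining cells, and at 69.3 against 129 CPM in the tumours. Igf1 stood at 1079 against 157 CPM and at 655 against 370.5 CPM, and Pi16 at 49.0 against 925 CPM and at 281 against 519.6 CPM. The marker Pappa2 itself stood at 714 CPM in hyperplasia members and 65.9 CPM in tumour members, and Prlr at 452 and 20.8 CPM.

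Of the 5 largest rises in the hormone fit outside the leading genes, Lepr and Moxd1 are described above. Erc2, a protein of synaptic release sites (6.01, 5.04 without placebo 1), had 51.4% of its 35 UMIs in 1 cell and was higher in 3 of 4 libraries. Kcnip4, a potassium channel-interacting protein (4.82), was not called without placebo 1 (3.85). Lyve1, a hyaluronan receptor (4.51, 3.90 without placebo 1), rested on 8 UMIs. The 5 lowest fitted values, which depend on the prior count, were those of Car3, Amn, Saa3, Gm38115 and Mlana. No member had a UMI of these, so they were at least 3.12-, 3.39-, 3.52-, 3.13- and 2.70-fold lower, against a floor of 3 counts over the group (1.97 CPM).

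Oxtr, the oxytocin receptor, was higher in stage members at 5 of 5 stages, with 3.58, 16.7, 167, 58.3 and 46.4 CPM against 3.57, 2.51, 5.73, 2.56 and 2.74 CPM, a margin near 0 at puberty. No hormone member had a UMI of it. Of the peptide and prostaglandin receptors and related genes listed with it, 5 of 9 past the level limit were higher and 1 lower at all 5 stages. In the hormone libraries 3 of 12 tested on that list rose and 3 fell (median -0.15). Hhip, a hedgehog inhibitor, stood at 60.9, 41.6, 50.4, 29.1 and 55.6 CPM in stage members against 2.70 to 8.57 CPM, and did not pass in the hormone libraries (0.63, edgeR adjusted p = 0.634). Of 10 immediate-early and stress genes 1 rose there (Hspa1a, 0.53).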
